A study of Mus musculus with 8 samples.

Results

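The respiratory chain and ATP synthase subunits encoded in the nucleus were followed here in blood progenitors sorted from mouse bone marrow. They were defined by gene symbol: the Nduf a, b, c, s and v series of complex I, Sdha to Sdhd of complex II, the Uqcr genes of complex III, the Cox4 to Cox8 series of complex IV, and the Atp5 genes of ATP synthase, with pseudogenes left out. Of 20145 gene symbols with a probe on the array, 84 met this definition, with 113 probes between them: 37 genes of complex I, 4 of complex II, 8 of complex III, 18 of complex IV and 17 of ATP synthase. The pattern matched 105 symbols of the reference, of which 18 were pseudogenes and 3 (Ndufb1, Ndufb4b and Ndufb4c) had no probe matched here. Complexes were assigned from the symbol alone, so Ndufa4 and Ndufa4l2 are counted in complex I by name only. In 82 of the 84 genes a probe exceeded background clearly on both arrays of some group, and these were tested. Cox7b2 and Cox8c, the latter a testis isoform of a complex IV subunit, were not well above background on any array.

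Complexes I and II pass electrons from NADH and succinate to ubiquinone, complex III passes them on to cytochrome c, and complex IV reduces oxygen. Complexes I, III and IV pump protons across the inner mitochondrial membrane, and ATP synthase makes ATP as the protons flow back. Resting haematopoietic stem cells are known for relying little on this pathway, while committed myeloid progenitors draw on it more. A minority of subunits are encoded by the mitochondrial genome; none of those genes had a probe matched here, so the nuclear side alone was measured.

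The wild-type and ACKR1-deficient mice were 12-week-old female littermates from a heterozygous colony kept on a C57Bl/6J background. ACKR1 is an atypical receptor that binds chemokines without signalling through G proteins, and the labels name no Cre or tissue-specific promoter for the deficiency. LSK cells (negative for lineage markers, positive for Sca1 and cKit) include stem cells and multipotent progenitors, and GMP cells (lineage- and Sca1-negative, cKit-, CD34- and CD16/32-positive) are granulocyte-macrophage progenitors. Each population and genotype had 2 arrays, which gives 4 groups: wild-type LSK, deficient LSK, wild-type GMP and deficient GMP. The labels do not say whether arrays came from separate animals, so p-values cover the spread among these arrays only, and that spread may be technical. A level below is the log2 signal of a probe over the 75th percentile of its array, and a difference is between means of such levels (n = 2 arrays per group, with the limma standard error after ±). Levels of different genes come from different probes and are not set against each other.

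Arrays were uneven. Deficient LSK replicate 2 had 34.3% of its spots well above background and a 75th percentile of 24.6 intensity units, against 62.5% to 73.1% and 197 to 770 units on the other 7. Over all tested features its correlation with its replicate was 0.780, and that of the deficient GMP pair was 0.898, against 0.948 and 0.976 for the wild-type pairs. Of the 82 subunit genes, 77 were well above background on all 8 arrays, and Uqcrc1, Ndufa11, Ndufs8, Cox8b and Ndufa4l2 failed on deficient LSK replicate 2 (Cox8b also on deficient GMP replicate 2). All 8 LSK markers and all 8 GMP markers were well above background on both arrays of wild-type LSK and of wild-type GMP. Both lists were so in deficient GMP too, but in deficient LSK 6 of 8 LSK and 5 of 8 GMP markers were. The summed linear level of the LSK markers was 326 to 380 in wild-type LSK against 150 to 225 in deficient LSK, and limma called 0 of the 8 genes. Marker transcripts of mature cells differed by genotype: the summed linear level of 10 neutrophil markers was 3.36 to 10.6 in wild-type LSK against 1350 to 3270 in deficient LSK, and 8.78 to 17.2 against 1250 to 3330 in GMP. For 10 erythroid markers the ranges were 7.55 to 53.0 against 1510 to 8420 in LSK, and 4.89 to 11.7 against 1530 to 2980 in GMP. Of the neutrophil markers 8 were called higher in deficient LSK and 6 in deficient GMP, and of the erythroid markers 5 in each. The part of these marker differences in the genotype values below was not tested, and in sorted populations fewer cells of a type and less RNA per cell cannot be told apart. In LSK the single Ackr1 probe read −0.66 and −1.05 in wild type and −0.70 and −0.85 in deficient cells, and in GMP −0.50 and −0.45 in wild type and −0.07 and −0.16 in deficient cells; its place relative to the disrupted sequence is unknown here, so it does not check the genotype labels.

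Promoter sequence was read beside the array values, as a description of these genes. No word searched was common to all of them. Windows of 300 bases, 250 before and 50 after the annotated start, were read from RefSeq (GRCm38.p6) for 68 of the 84 genes and searched on both strands for 6 short words. The word made of GCGC, any base and TGCGC, the core of the site bound by NRF1, a transcription factor of mitochondrial genes, was present in 16 of the 68 windows (23.5%), against 8.47% of 12618 windows of tested genes with a symbol and 4.78% of all 27025. The ETS-type word CCGGAAG was also in 16 windows (23.5%, against 15.1% and 9.12%), and AAGATGGC, the YY1 word, was in 9 (13.2%, against 4.02% and 2.88%). The word GGGCGG of SP1 was in 41.2% of the windows, against 55.9% of those of tested genes and 35.9% of all; CCAAT was in 44.1%, against 39.0% and 37.9%, and TATAAA in 11.8%, against 9.97% and 14.2%. The median GC content of the subunit windows was 57.3%, against 52.7% over the whole table, and matches may overlap one another. The 150 bases before the start are printed below for 4 genes with an NRF1 match. They follow for 2 complex IV genes with none of the first 3 words, which were lower in wild-type GMP than in wild-type LSK. Genes higher in wild-type GMP, such as Atp5g1 and Cox5a, also lacked these 3 words. Whether the words go with a direction was not tested. Capitals mark NRF1 matches and, as CTTCCGG on the opposite strand, ETS matches. A match is a description of letters and not a measured binding site.
Ndufb4 (complex I; GRCm38.p6 chr16:37654369-37654518, minus strand): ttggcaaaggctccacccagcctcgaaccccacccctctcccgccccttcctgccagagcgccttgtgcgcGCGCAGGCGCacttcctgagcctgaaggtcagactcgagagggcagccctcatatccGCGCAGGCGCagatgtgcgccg
Sdha (complex II; GRCm38.p6 chr13:74350241-74350390, minus strand): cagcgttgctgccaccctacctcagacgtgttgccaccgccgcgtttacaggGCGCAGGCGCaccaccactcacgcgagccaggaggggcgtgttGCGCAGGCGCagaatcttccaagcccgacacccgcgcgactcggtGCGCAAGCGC
Sdhd (complex II; GRCm38.p6 chr9:50603850-50603999, minus strand): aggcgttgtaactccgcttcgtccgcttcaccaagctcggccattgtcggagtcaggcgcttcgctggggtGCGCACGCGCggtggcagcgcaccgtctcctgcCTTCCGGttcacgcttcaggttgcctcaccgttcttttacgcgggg
Cox6a1 (complex IV; GRCm38.p6 chr5:115348959-115349108, minus strand): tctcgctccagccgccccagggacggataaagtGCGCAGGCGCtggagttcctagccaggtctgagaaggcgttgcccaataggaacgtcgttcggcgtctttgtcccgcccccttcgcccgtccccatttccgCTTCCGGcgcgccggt
Cox7a2l (complex IV; GRCm38.p6 chr17:83514334-83514483, minus strand): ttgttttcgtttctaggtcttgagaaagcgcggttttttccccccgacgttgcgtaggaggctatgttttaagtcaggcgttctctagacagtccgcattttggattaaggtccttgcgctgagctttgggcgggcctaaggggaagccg
Cox8b (complex IV; GRCm38.p6 chr7:140900447-140900596, minus strand): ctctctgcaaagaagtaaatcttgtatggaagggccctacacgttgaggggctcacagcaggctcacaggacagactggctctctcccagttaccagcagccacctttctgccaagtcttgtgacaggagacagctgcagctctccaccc

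The first comparison asks how subunit transcripts differ between the stem-cell-containing and the committed myeloid population of normal mice. In wild-type cells, 78 of the 82 subunit genes had a higher mean in GMP than in LSK, with a median difference of 1.00 on the log2 scale, against 0.01 over all 28088 features. The shift ran through every complex: the median was 1.00 over 37 complex I genes, 0.77 over 4 complex II genes, 1.03 over 8 complex III genes, 1.01 over 16 complex IV genes and 1.02 over 17 ATP synthase genes. For 76 genes both GMP arrays lay above both LSK arrays, where 28.3% of all features did so. No single gene passed the test: limma called 0 of 82 at an adjusted p under 0.05, with 1.86% of all features called. At an unadjusted p under 0.05, 3 were higher (2.88% of all features were), namely Uqcrq, Atp5g1 and Atp5o, and 1 was lower (5.52%), Cox6a2. These counts depend on the spread used, which the main fit shares over all 8 arrays, deficient ones included. In a limma fit of the wild-type arrays alone, 46 of the 82 genes were at an unadjusted p under 0.05, with 5558 of all 28088 features. That fit called 0 of the 82 genes and 1337 of all features. Both GMP arrays lay below both LSK arrays for 3 genes (20.2% of all features), namely Cox6a2, Cox8b and Cox7a2l.

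Among the core subunits of complex I, the iron-sulphur protein Ndufs1 read 3.59 and 4.04 in wild-type LSK and 4.68 and 4.68 in wild-type GMP, a difference of 0.86 ± 0.90 (limma, adjusted p = 1.0). Ndufv1, which binds NADH, read 4.48 and 4.81 against 5.98 and 5.76 (1.22 ± 0.66). Ndufa4l2, a hypoxia-induced paralogue of Ndufa4, was the lowest of the genes placed in complex I by symbol (0.22 ± 0.77). The accessory subunit Ndufa11 was the highest (1.98 ± 1.24). Ndufa11 read 0.62 and 2.39 in LSK and 3.49 on both GMP arrays.

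In complex II, the flavoprotein Sdha had the smallest difference (4.31 and 4.49 in LSK, 4.81 and 4.67 in GMP; 0.34 ± 0.80), and the membrane anchor Sdhd the largest (4.50 and 4.84 against 6.05 and 5.86; 1.28 ± 0.66). All 4 genes of the complex were without overlap between the populations. In complex III, the core protein Uqcrc1 had the largest difference of all 82 genes, at 2.59 ± 1.26 (limma, adjusted p = 0.665), with 1.64 and 2.94 in LSK and 4.95 and 4.81 in GMP. The small subunit Uqcrq read 5.23 and 5.20 in LSK and 6.91 and 6.63 in GMP, a difference of 1.56 ± 0.62 with an adjusted p of 0.469 in limma. The Rieske iron-sulphur protein Uqcrfs1 lay at the low end of the complex, at 0.31 ± 0.85.

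In ATP synthase, the catalytic-head subunits Atp5a1 (alpha) and Atp5b (beta) had differences of 0.50 ± 0.63 and 1.20 ± 0.79. Atp5a1 was the lowest of its complex and read 5.99 and 6.10 in LSK against 6.56 and 6.53 in GMP. Atp5g1, one of the genes for the proton-carrying c subunit, had the largest difference, 1.81 ± 0.77 (limma, adjusted p = 0.550), with 5.03 and 5.25 in LSK and 7.01 and 6.88 in GMP. Its partners Atp5g2 and Atp5g3, which encode the same mature protein, were at 0.88 ± 0.69 and 0.92 ± 0.78. Atp5o, the stalk subunit that joins head and membrane part, read 3.18 and 3.75 against 5.20 and 4.77 (1.51 ± 0.64; limma, adjusted p = 0.539). Quantile normalization, which forces the arrays onto 1 distribution, shrank the median over the subunits from 1.00 to 0.40, with 69 of 82 above 0, and the all-feature median under it was 0.07. With array weights 3 of the 82 genes were called, Uqcrq and Atp5g1 higher and Cox6a2 lower, but 2085 of all 28088 features were called too, a larger share. Both arrays of a group got the same weight, from 0.316 in deficient LSK to 3.93 in wild-type GMP. The setting thus weighted groups and could not set the weak array apart from its replicate.

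**Figure D1:**
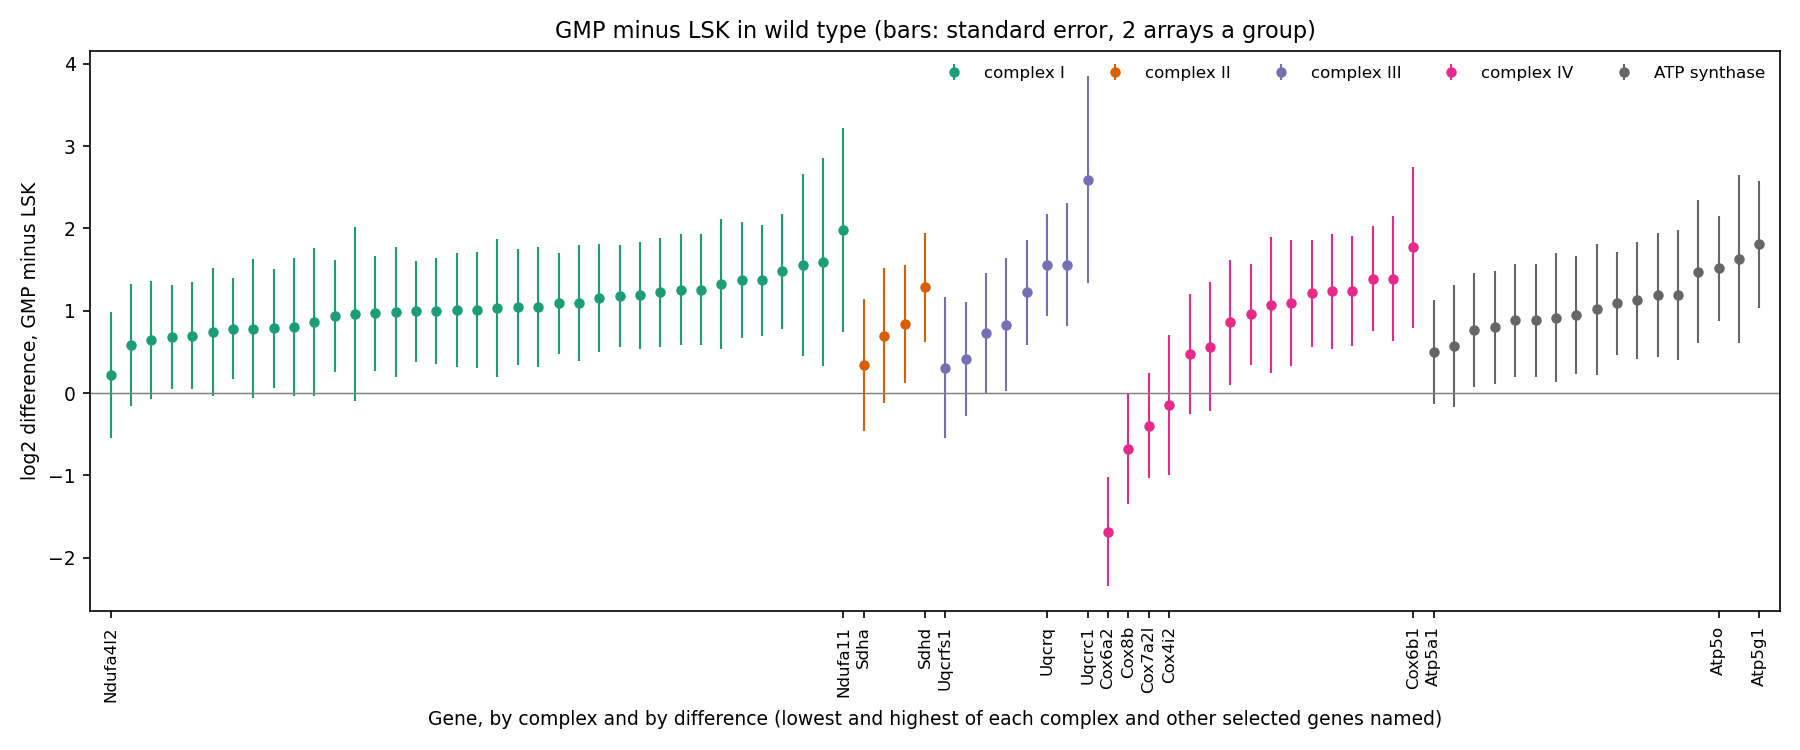
Log2 difference of each of 82 subunit genes, GMP minus LSK in wild type, ordered by complex and then by size, with the limma standard error as a bar (2 arrays per group). All genes outside complex IV lie above 0, and the 4 below 0 are the complex IV genes Cox6a2, Cox8b, Cox7a2l and Cox4i2.

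The 4 genes below 0 all belong to complex IV, where several subunits exist as isoforms from separate genes. Cox6a2, the heart and muscle isoform of subunit 6a, read 0.34 and 1.28 in wild-type LSK and −0.66 and −1.09 in wild-type GMP, a difference of −1.68 ± 0.66 (limma, adjusted p = 0.456). Its widely expressed counterpart Cox6a1 read 6.73 and 7.25 in LSK and 8.32 and 8.12 in GMP, which is 1.24 ± 0.70 in the other direction. Cox6a2 stayed below 0 in all 20 settings, between −2.16 and −1.21. Cox8b, the heart and muscle isoform of subunit 8, read −3.67 and −3.39 against −4.52 and −3.90 (−0.68 ± 0.67), and the widely expressed Cox8a read 7.13 and 7.31 against 8.29 and 8.07 (0.96 ± 0.61). Both pairs thus had their isoforms on opposite sides of 0 in wild type, without overlap between the arrays for any of these 4 genes.

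Cox7a2l, a relative of the subunit 7a genes that takes part in joining complexes III and IV into supercomplexes, read 6.99 and 6.89 in LSK and 6.71 and 6.38 in GMP (−0.39 ± 0.63). A second of its 3 probes gave −0.35 and the third 0.44, so its direction depends on the probe. Cox7a2, the widely expressed 7a isoform, was higher in GMP by 1.39 ± 0.76, from 3.84 and 4.08 to 5.58 and 5.11, and the muscle isoform Cox7a1 by 0.48 ± 0.72. Cox4i2, an isoform known from lung and from low oxygen, differed by −0.14 ± 0.85 with overlapping arrays (1.74 and 0.61 in LSK, 0.92 and 1.14 in GMP). Its partner Cox4i1 read 6.16 and 6.76 against 7.94 and 7.47 (1.24 ± 0.67). In the 6b pair, the widely expressed Cox6b1 differed by 1.77 ± 0.98 and the testis isoform Cox6b2 by 1.07 ± 0.83. Cox5a, Cox7b and Cox7c, further subunits of the complex, were at 1.21 ± 0.65, 1.10 ± 0.77 and 0.56 ± 0.78.

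**Figure D2:**
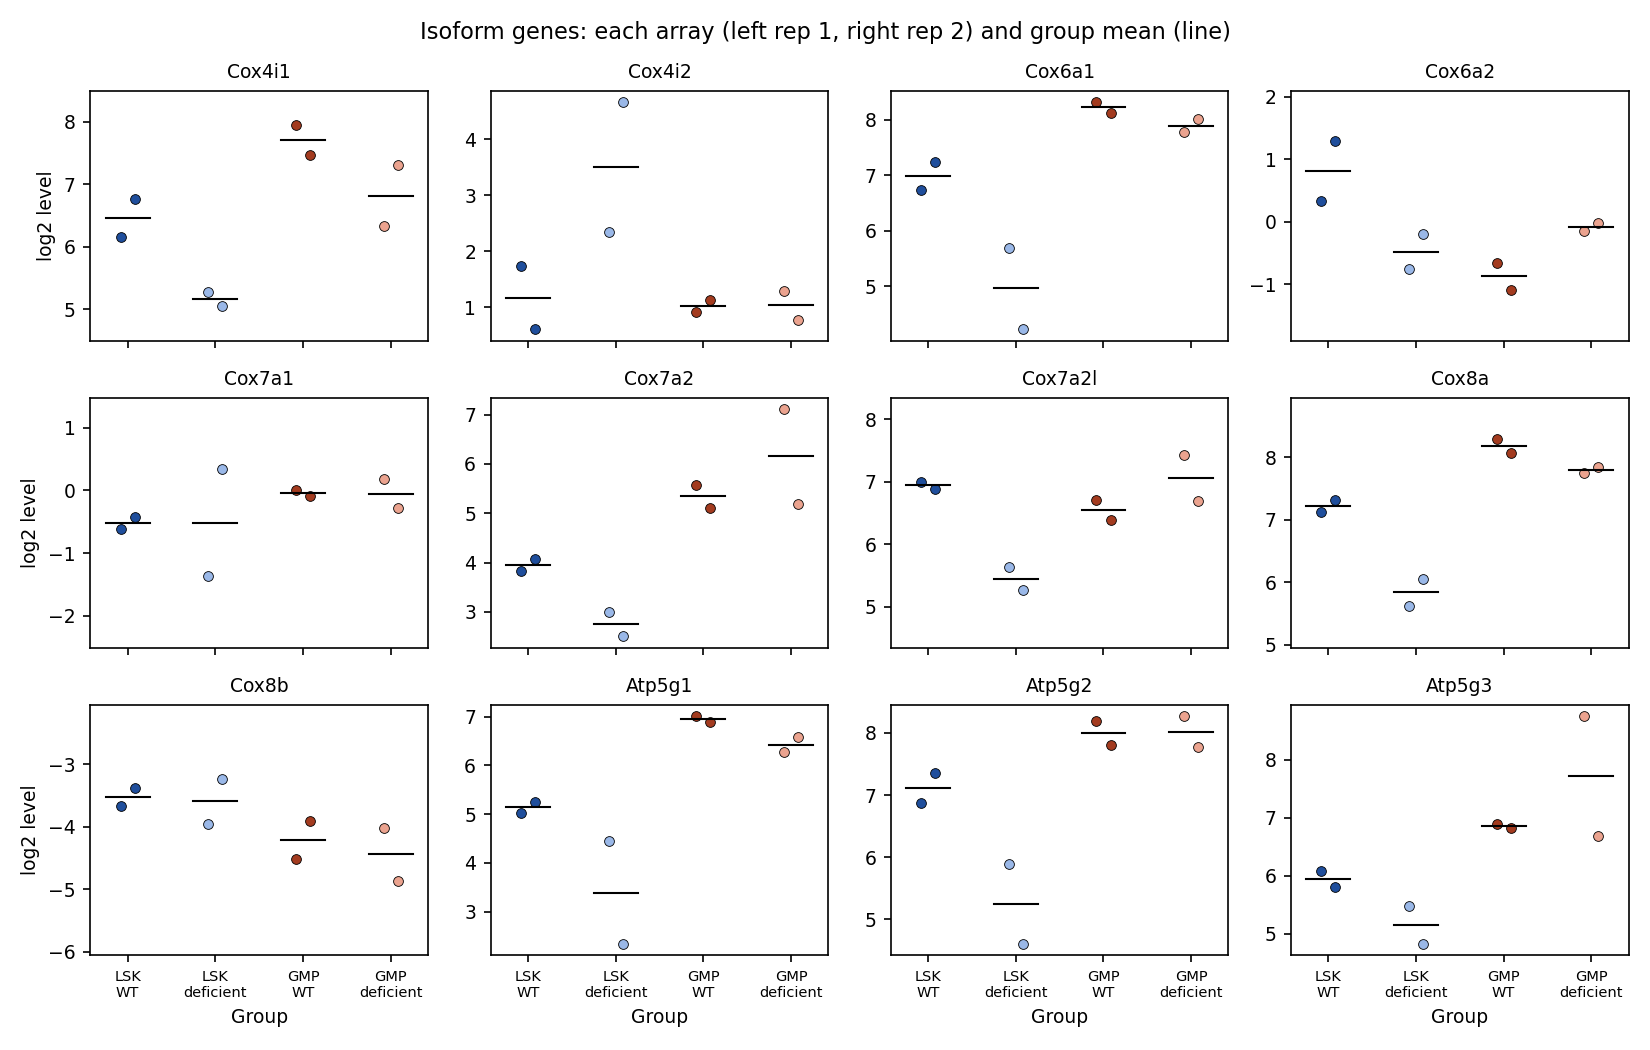
Log2 level over the 75th percentile of the array for 12 isoform genes, each in a panel with its own scale, by group; points are single arrays (replicate 1 left, replicate 2 right) and lines are group means. Cox6a2 is lower in wild-type GMP than in wild-type LSK while Cox6a1 is higher, and Cox4i2 is highest on the deficient LSK arrays.

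The second comparison asks what ACKR1 deficiency goes with in LSK cells. In deficient LSK, 78 of 82 subunit genes had a lower mean than in wild-type LSK, with a median difference of −1.25, against 0.11 over all features. For 66 genes both deficient arrays lay below both wild-type arrays (21.1% of all features did so), and 23 were lower at an unadjusted p under 0.05 (3.38%). No gene was called (0 of 82; limma called 0.239% of all features), and the lowest adjusted p was 0.494, for Ndufb2 of complex I. The medians by complex were −1.19 in complex I, −1.28 in complex II, −1.06 in complex III, −1.29 in complex IV and −1.43 in ATP synthase. The direction did not rest on the weak array alone: without deficient LSK replicate 2 the median was −1.08 with 78 of 82 below 0, and without replicate 1 it was −1.45 with 72 below 0. With replicate 1 left out, so that the weak array stood alone, 8 genes were called (7 lower and Cox4i2 higher), and 2827 of all features. In slide row 1 the median was −0.894 (77 below 0), and in slide row 3, which holds the weak array, −1.59 (75 below 0). Quantile normalization gave −0.87 and background correction by normexp −1.83, while the all-feature median moved from 0.11 to −0.25 and 0.41. The subunit probes were brighter than the median feature on every array. Their median level was 4.64 and 4.88 in wild-type LSK and 3.66 and 3.21 in deficient LSK. Over all features it was −0.73 and −0.91 against −0.82 and −0.55. In every comparison the all-feature median thus stands for dimmer probes, and features of like brightness were not compared.

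Ndufa11 was lowest, with 0.62 and 2.39 in wild-type LSK against −1.17 and −3.23 in deficient LSK (−3.70 ± 1.24; limma, adjusted p = 0.513). Uqcrc1 read 1.64 and 2.94 against 1.21 and −1.86, so its lowest value was on the weak array, where it missed the background criterion (−2.61 ± 1.26). In ATP synthase the lowest was Atp5d, the delta subunit of the rotor, with 2.93 and 4.22 against 2.48 and 0.92 (−1.87 ± 1.02). Cox6b1 was lowest in complex IV (1.46 and 2.82 against 0.65 and −0.58; −2.11 ± 0.98), and Sdhd in complex II (−1.51 ± 0.66), where the smallest difference was that of Sdha (−0.80 ± 0.80). Ndufb2, Cox4i1 and Cox8a were among the genes without overlap between the arrays. Ndufb2 read 3.18 and 3.47 against 1.32 and 1.31 (−2.01 ± 0.64). Cox4i1 read 6.16 and 6.76 against 5.27 and 5.06 (−1.29 ± 0.67). Cox8a read 7.13 and 7.31 against 5.62 and 6.06 (−1.38 ± 0.61).

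The 4 genes with a mean above 0 were Cox4i2, Ndufa4l2, Atp5k and Cox7a1. Cox4i2 read 1.74 and 0.61 in wild-type LSK against 2.35 and 4.66 in deficient LSK, a difference of 2.33 ± 0.85 (limma, adjusted p = 0.550). It was the only tested member whose deficient arrays both lay above both wild-type arrays (16.4% of all features did so). It was also the only one higher at an unadjusted p under 0.05 (5.45%). Its difference remained above 0 in all 20 settings, between 1.17 without deficient LSK replicate 2 and 3.49 without replicate 1. The untested probes of Cox7b2 and Cox8c, not well above background on any array, differed by 2.76 and 2.36. Both read highest on deficient LSK replicate 2. For Cox7b2 too both deficient LSK arrays lay above both wild-type arrays. Ndufa4l2 (0.45 ± 0.77), the ATP synthase e subunit Atp5k (0.13 ± 0.87) and Cox7a1 (0.00 ± 0.72) had overlapping arrays, and each was higher on deficient LSK replicate 2 than on replicate 1. In this comparison Atp5k and Ndufv3 had probes of opposite sign, as the only 2 of 22 genes with several kept probes.

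The third comparison makes the same contrast in GMP. There the subunits showed no common shift: the median difference was 0.24, against 0.16 over all features, with 55 genes above 0 and 27 below. The deficient arrays lay above both wild-type arrays for 7 genes (20.1% of all features) and below them for 17 (19.5%). Limma called 0 of 82, with 0.146% of all features called and 0 subunit genes at an unadjusted p under 0.05 in either direction (3.42% of all features were higher and 1.41% lower); the lowest adjusted p was 0.955. The sign of the median followed 1 array: without deficient GMP replicate 1 it was −0.15 with 62 of 82 below 0, and without replicate 2 it was 0.67 with 57 above 0. In slide row 2, which holds deficient replicate 1, the median was 0.506 with an SD of 1.42 over genes, and in row 4 it was 0.006 with an SD of 0.291 (41 above and 41 below 0).

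**Figure D3:**
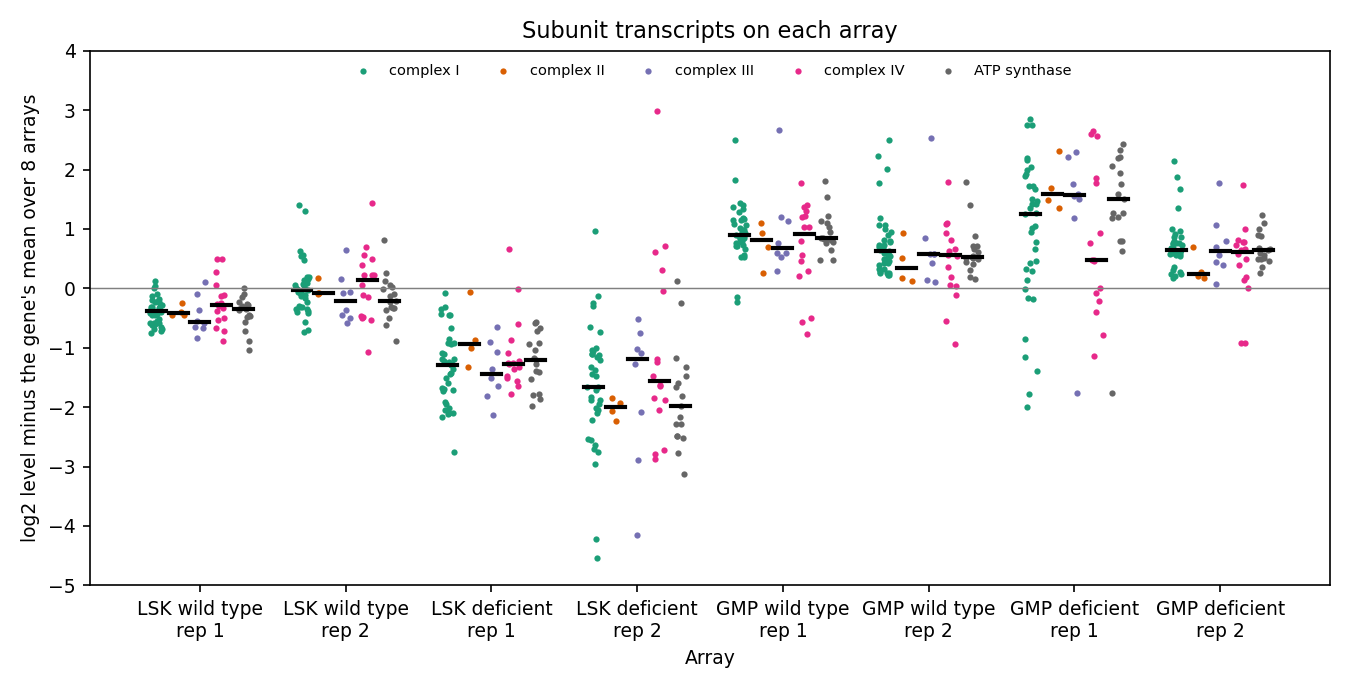
Log2 level of each of 82 subunit genes minus the gene's own mean over the 8 arrays, by array; colours are complexes and black lines are complex medians. The deficient LSK arrays lie lowest, with medians over all subunits of −1.28 and −1.66, the wild-type LSK arrays at −0.37 and −0.07 and the GMP arrays between 0.56 and 1.31, with a wide spread on deficient GMP replicate 1.

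The genes with the lowest GMP difference in complexes I, III, IV and ATP synthase were also the lowest of their complex in LSK. Uqcrc1 read 4.95 and 4.81 in wild-type GMP against 0.52 and 4.06 in deficient GMP (−2.59 ± 1.26; limma, adjusted p = 0.955). Ndufa11 read 3.49 on both wild-type arrays against −0.80 and 3.14 (−2.32 ± 1.24), Atp5d 5.21 and 5.19 against 1.64 and 4.64 (−2.06 ± 1.02), and Cox6b1 3.90 and 3.93 against 0.99 and 3.88 (−1.48 ± 0.98). In each of the 4, deficient GMP replicate 1 was far below the other GMP arrays, while replicate 2 lay near the wild-type arrays. At the other end, Cox7c of complex IV read 5.37 and 4.96 against 7.50 and 5.40 (1.28 ± 0.78), Atp5mpl of ATP synthase 6.88 and 6.35 against 8.47 and 7.05 (1.15 ± 0.72), and Ndufb3 of complex I 5.82 and 5.52 against 8.05 and 5.57 (1.14 ± 0.85). These highest differences too came from deficient replicate 1. Other kept probes of Cox7c gave −0.27 and 1.05, so its direction depends on the probe.

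**Figure D4:**
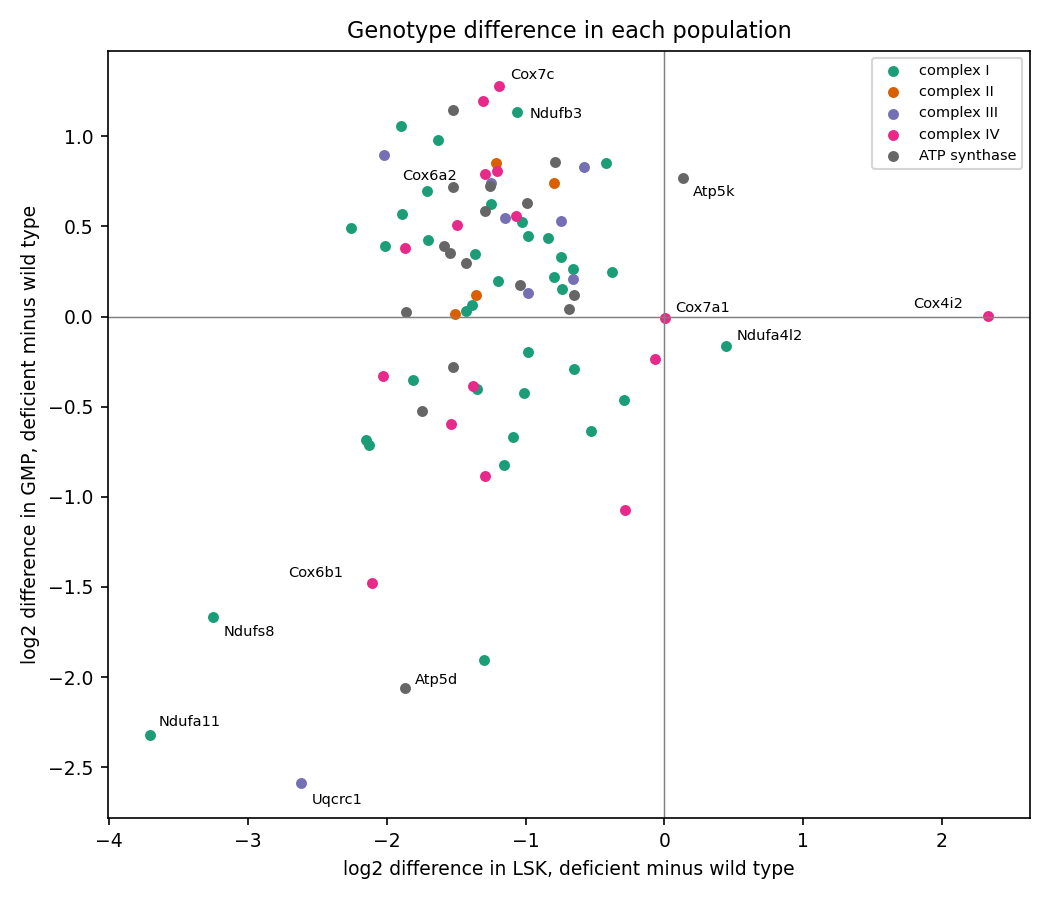
Log2 difference, deficient minus wild type, of each of 82 subunit genes in LSK (horizontal axis) and in GMP (vertical axis), coloured by complex. All but 4 genes lie left of 0, while in GMP 55 lie above and 27 below 0; Uqcrc1, Ndufa11, Atp5d and Cox6b1 are low in both.

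The gap between the deficient GMP replicates was itself uneven over the subunits. Replicate 1 minus replicate 2 ran from −3.93 for Ndufa11 to 2.48 for Ndufb3, with an SD of 1.43 over the 82 genes, where the wild-type GMP pair had an SD of 0.384. Ndufa11, Uqcrc1 (−3.54), Ndufa10 (−3.34), Ndufs8 (−3.02), Atp5d (−3.01) and Cox6b1 (−2.89) were at the low end, while Ndufa4l2 was at −1.46. These 6 genes were also lower on replicate 1 than on replicate 2 of wild-type LSK. So were 67 of all 82 subunit genes and 11957 of all 28088 features. In deficient LSK all 6 were instead lower on replicate 2, the weak array. In wild-type GMP their gaps were small or of either sign, such as −0.85 for Ndufa10 and 0.14 for Uqcrc1. Over the 82 genes the gap in deficient GMP and the gap in wild-type LSK had a Pearson correlation of 0.707 (Spearman 0.59), given as a description, since the genes of an array share its RNA and labelling; over all features it was 0.343. With the gap in wild-type GMP the Pearson correlation was 0.485 (0.262 over all features). With replicate 2 minus replicate 1 of deficient LSK it was 0.239 (0.0524). Probes of 1 gene could part: Sdhb, the iron-sulphur subunit of complex II, had a gap of 2.03 on its brighter probe and −2.09 on the other, and 10 of 22 genes with several kept probes had gaps of opposite sign, the same 10 whose GMP genotype differences had opposite signs. What sets this gap was not tested.

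**Figure D5:**
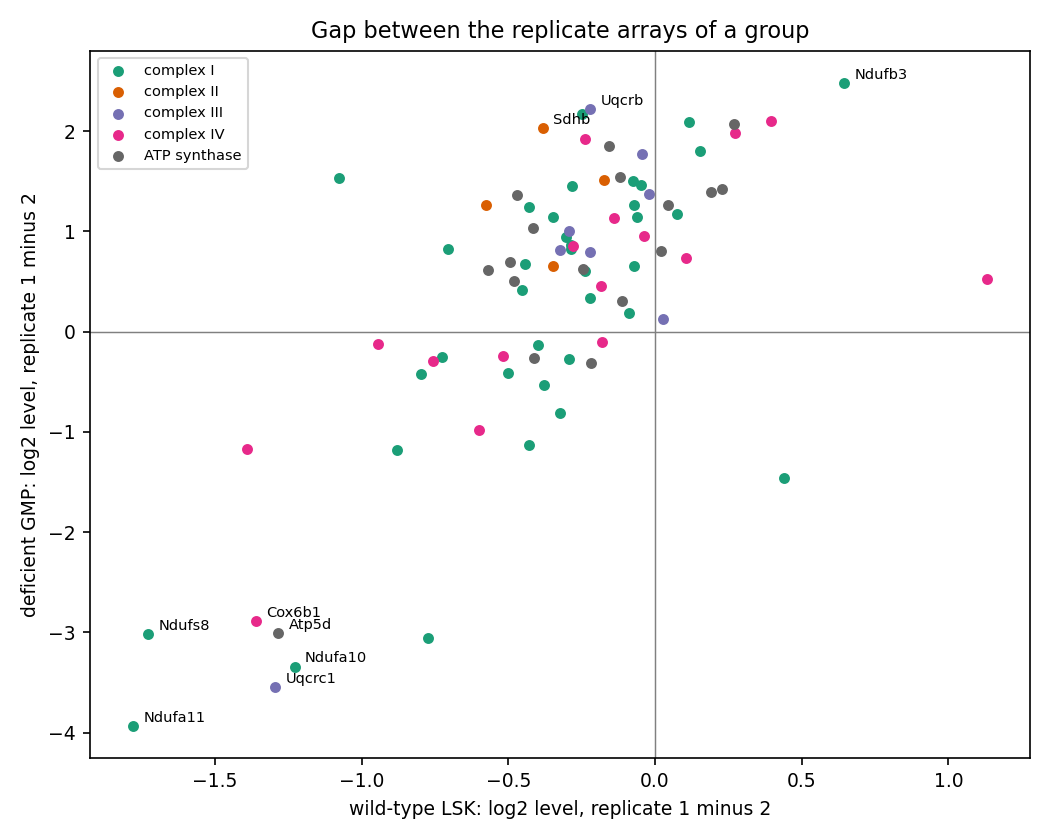
Log2 level of each of 82 subunit genes on replicate 1 minus replicate 2 of wild-type LSK (horizontal axis) and of deficient GMP (vertical axis), coloured by complex. The 6 genes named at the lower left are between −3.93 and −2.89 in deficient GMP. All 6 are below 0 in wild-type LSK, as are 67 of the 82 genes.

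Averaged over both populations, deficient minus wild type had a median of −0.45 over the subunits, against 0.17 over all features, with 74 of 82 below 0. Limma called 0 of 82 (0.602% of all features), and 11 were lower at an unadjusted p under 0.05 (5.37%), among them Ndufa11 (−3.01 ± 0.88; adjusted p = 0.308), Uqcrc1 (−2.60 ± 0.89; adjusted p = 0.368), Atp5d (−1.97 ± 0.72), Cox6b1 (−1.79 ± 0.69), Cox6a1 (−1.18 ± 0.50) and Cox4i1 (−1.09 ± 0.47). None was higher at that level (0 of 82, against 6.8% of all features). The 8 above 0 were Cox4i2 (1.17 ± 0.60), Atp5k (0.45 ± 0.61), Ndufa5 (0.22 ± 0.59), Ndufa4l2, Uqcrb, Cox7c, Ndufb3 and Atp5g3. For Ndufa5 this depends on the probe: its second kept probe gave −2.41 in LSK and −0.91 in GMP. With the mean of its probes the average for Ndufa5 was −0.72. Without the weak LSK array and deficient GMP replicate 1 together, the median was −0.58 with 79 below 0. Under quantile normalization it was −0.28, against −0.09 over all features. With the slide row as a block 3 of the 82 genes were called lower, Ndufa11, Uqcrc1 and Ndufs8, and 905 of all 28088 features were called in either direction, a similar share.

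The difference of the genotype differences, GMP minus LSK, was above 0 for 73 of 82 genes, with a median of 1.44 against −0.01 over all features. Limma called 0 of 82 and 0% of all features, and 12 subunit genes were higher at an unadjusted p under 0.05 (1.41% of all features). The lowest adjusted p was 0.961. For 7 genes (2.24% of all features had this pattern), the deficient arrays lay below the wild-type arrays in LSK and above them in GMP without overlap: Cox5a, Cox6a2, Cox6c, Cox7c, Uqcr10, Atp5a1 and Atp5mpl. They were all the subunit genes higher without overlap in GMP, 8.54% of the 82 against 20.1% of all features. In LSK 80.5% of the 82 were lower without overlap, against 21.1%, so the pattern mostly reflects the LSK side. Cox4i2 stood at the other end, with −2.33 ± 1.20. Without both arrays that stood apart the median was 0.96, with 77 genes above 0. The genotype difference in the subunits was thus not shown to differ between the populations for any single gene.

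In the deficient animals, GMP cells had higher means than LSK cells for 79 of 82 genes, with a median of 2.40 against −0.07 over all features. Both GMP arrays lay above both LSK arrays for 72 genes (18.4% of all features), and 71 were higher at an unadjusted p under 0.05 (9.61%), but limma called 0 (0% of all features), with a lowest adjusted p of 0.14. This comparison uses the same deficient LSK arrays as the genotype comparison in LSK and is no separate support for it. Ndufa1, an accessory subunit of complex I, had the largest difference, 3.94 ± 0.79, with 3.33 and 2.52 in deficient LSK and 7.90 and 5.82 in deficient GMP. Cox4i2 had the lowest, −2.47 ± 0.85, and was the only one lower at an unadjusted p under 0.05 (7.11% of all features). Without both arrays that stood apart the median was 2.02 with 80 above 0. Without deficient LSK replicate 1 alone 42 genes were called, with 4258 of all 28088 features, and with normexp background correction 54, with 849 of all features. GMP exceeded LSK without overlap in both genotypes for 70 of 82 genes (12.3% of all features); the 12 others included Uqcrc1, Ndufa10, Ndufs8, Atp5d, Cox6a2, Cox6b2, Cox7a1, Cox7a2l, Cox8b, Cox4i2 and Ndufa4l2.

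Other genes of mitochondrial energy metabolism were listed beside the subunits: assembly factors, electron carriers, the tricarboxylic acid cycle, biogenesis regulators, protein import, and ATP exchange with uncoupling. Of 144 genes listed, 124 were tested. Their median difference between wild-type GMP and wild-type LSK was 0.87, with 108 above 0; it was −1.04 in the LSK genotype comparison, with 14 above 0, and −0.03 in the GMP genotype comparison, with 60 above 0. In wild type, all 17 genes of the tricarboxylic acid cycle (median 0.97) and all 18 of import (1.05) were above 0 in GMP, against 12 of 16 biogenesis regulators (0.31) and 12 of 15 complex I assembly factors (0.75). In deficient LSK, all 18 import genes (−1.44) and all 15 electron carriers and other subunits (−0.99) were below 0, as were 16 of 17 genes of the tricarboxylic acid cycle (−1.04). The remaining lists had wild-type medians of 0.15 over 4 complex II, 0.45 over 5 complex III and 0.79 over 21 complex IV assembly factors, 0.19 over 3 ATP synthase assembly factors, and 0.47 over 10 genes of ATP exchange and uncoupling.

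Of the 124 genes, limma called 1 in wild-type GMP against LSK, where it called 1.86% of all features, a larger share. It called 0 in the other 5 comparisons (0% to 0.602% of all features). The called gene was Ppargc1a, a coactivator that drives mitochondrial biogenesis. It read −1.78 and −2.08 in wild-type LSK and −6.25 and −7.62 in wild-type GMP, where neither array had it well above background. On these readings limma gave an adjusted p of 0.0186. With GMP set at the dimmest probes well above background on its arrays, Ppargc1a would be 15.8-fold lower than in LSK. This is a rough figure, since a probe can miss the background criterion at a higher level. Its paralogue Ppargc1b had a difference of 0.61 ± 0.67, and Tfam, which packages and transcribes mitochondrial DNA, of 0.28 ± 1.19. Cytochrome c (Cycs) read 4.40 and 4.85 in wild-type LSK against 6.42 and 6.37 in wild-type GMP (1.77 ± 0.82), and cytochrome c1 of complex III (Cyc1) 3.32 and 4.19 against 5.21 and 5.50 (1.60 ± 0.90). In LSK the genotype differences were −1.38 ± 0.82 for Cycs, −1.31 ± 0.90 for Cyc1 and −2.22 ± 1.19 for Tfam, and none passed the limma test.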

How the data were processed

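RNA of sorted LSK and GMP cells was labelled with Cy3 and hybridised to 1-colour Agilent arrays, 2 for each of 4 groups. Per the file headers, Agilent Feature Extraction 10.7.3.1 made the processed signal, a background-corrected fluorescence intensity on a linear scale, and the array design was annotated on mm9. The authors' deposited value table holds log2 values; compared with scanner values centred per probe, its 8 columns correlated at 0.999626 to 0.999944, its column medians were 0.121 and −0.265 (wild-type LSK), 0.0414 and 1.25 (deficient LSK), −0.134 and −0.136 (wild-type GMP) and 0.315 and −0.111 (deficient GMP), and it served as an alternative. Labels and headers state no further step of the authors.

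Levels are log2 processed signal less the array's 75th percentile over 59305 non-control spots. Outlier spots (104 to 139 per array) were dropped, 0 were saturated, and spots of a probe were averaged. Of 55681 probes, 39098 passed the background criterion on both arrays of some group and were kept. A RefSeq gene table (GRCm38.p6), used for names, matched 26582 probes to 20145 symbols. Each gene was represented by its probe of highest mean, which gave 28088 features, 15856 with a symbol. Promoter windows came from RefSeq tables of the same assembly.

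Limma 3.58.1 in R 4.3.3 (with data.table, version 1.17.8; figures with Python 3.11.15 and matplotlib 3.10.9) fitted 4 group means over 8 arrays (4 residual and 5.76 prior degrees of freedom), with Benjamini-Hochberg adjustment over all features and a call at an adjusted p under 0.05. The number of arrays limits the precision. The fit was tested on simulated data. Members, gene lists and tests were chosen with earlier results of these data known. Named are members called in any comparison, the highest and lowest of each complex in the genotype comparisons and in wild-type GMP against LSK, core subunits, isoform genes, members not above background, and Cycs, Cyc1, Tfam, Ppargc1a and Ppargc1b; other members named were singled out after their values were seen. Values of 1 tested member are not reported here. Marker lists of B, T and NK, monocyte, megakaryocyte and stromal cells were also read: in deficient against wild-type arrays 1 B-cell marker was called higher in each population and 0 genes of the other 4 lists. The alternatives concerned normalization, scaling, background correction (normexp with an offset of 50 on the median foreground), the filter, the choice of probe, array weights, blocks, the samples fitted and each array left out.

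All arrays shared 1 slide and 1 scan. Column 1 of the slide held the deficient and column 2 the wild-type samples, and these effects cannot be told apart. Within a population, equal replicate numbers shared a slide row. LSK arrays lay in rows 1 and 3 and GMP arrays in rows 2 and 4. No row held both populations, so differences between populations and between these rows cannot be told apart. Deviations of same-numbered arrays from their group means correlated at −0.344 in LSK and 0.262 in GMP, so the numbers were not taken to pair samples.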

Additional observations from a re-analysis of the deposited data

Results flagged for a closer look

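For 7 genes the arrays moved in opposite directions by genotype in the populations: both deficient arrays lay below both wild-type arrays in LSK and above them in GMP, as did 2.24% of all features. In GMP alone, 8.54% of the 82 genes were higher without overlap, a smaller share than the 20.1% of all features. The GMP genotype difference minus that in LSK was 1.63 for Cox5a, 2.50 for Cox6c, 2.08 for Cox6a2, 2.47 for Cox7c, 1.22 for Atp5a1, 1.27 for Uqcr10 and 2.67 for Atp5mpl. The limma test of this difference passed for none of them (adjusted p = 0.961 for each), while the unadjusted p was 0.0418 for Cox6c, 0.0498 for Cox7c and 0.0254 for Atp5mpl. Cox5a, Cox6a2, Cox6c and Cox7c belong to complex IV. Cox6c, one of its small subunits, read 5.79 and 5.52 in wild-type against 4.28 and 4.42 in deficient LSK, and 6.61 and 6.41 in wild-type against 8.70 and 6.72 in deficient GMP. Cox6a2 read 0.34 and 1.28 against −0.75 and −0.20 in LSK, and −0.66 and −1.09 against −0.14 and −0.02 in GMP. For Cox5a, Cox6c, Cox7c, Atp5a1, Uqcr10 and Atp5mpl the deficient GMP value was higher on replicate 1 than on replicate 2. The pattern of Uqcr10 and Cox7c depends on the probe. Their other kept probes had GMP genotype differences of −1.45 and 0.69 for Uqcr10, and of −0.27 and 1.05 for Cox7c.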

How the results depend on the processing

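In the genotype comparisons, their average and wild-type GMP against LSK, no named gene was called with a sign opposite to its main one. The GMP genotype median did change sign, from 0.24 in the main fit to −0.15 without deficient GMP replicate 1. In LSK the median over the subunits was −0.87 under quantile normalization and −1.83 with normexp background correction; 1 gene (Ndufa11) was called with the slide row as a block, with 479 of all features. In the average, normexp gave −0.81 and quantile normalization −0.28, and the row block called 3 genes, with 905 of all features. The median of the difference between the genotype differences was 1.08 with quantile normalization, 1.85 with normexp and 0.96 without both arrays that stood apart. In wild-type GMP against LSK, quantile normalization gave 0.40, and array weights called 3 genes (Cox6a2, Uqcrq and Atp5g1), with 2085 of all features. In deficient GMP against LSK, quantile normalization gave 1.31, and normexp gave 2.90 and called 54 genes, with 849 of all features. With 1 array left out at a time, the medians ranged from −1.45 to −1.08 in LSK, from −0.15 to 0.67 in GMP, from −0.67 to −0.30 in the average, from 1.15 to 1.68 for the difference between populations, from 0.86 to 1.20 for wild-type and from 2.17 to 2.71 for deficient GMP against LSK. Called genes ranged from 0 to 8 in LSK and from 0 to 42 in deficient GMP against LSK, both highest without deficient LSK replicate 1, where 2827 and 4258 of all features were called, the lone weak array being assumed to vary like the other groups; they were 0 elsewhere. With the replicate number as a block, the count was 0 in each of the 6 comparisons; the numbers are shared labels and no pairing of animals is stated. The cause of these movements was not tested. Of 36 named genes tested, 28 kept their sign in every setting in LSK, 17 in GMP, 21 in the average and 29 in wild-type GMP against LSK. Signal over background limits deficient LSK replicate 2 most.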
